A study of Mus musculus with 5 samples.

Results

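Chemokines are small secreted proteins that guide white blood cells, and 32 genes that encode them were followed here through the cells of mouse mammary tumours. The genes were all symbols that start with Ccl, Cxcl, Cx3cl or Xcl followed by a digit and that held at least 10 unique molecular identifiers (UMIs, each a counted transcript molecule) over 5 single-cell libraries. They were 32 of 41028 gene names, of which 18560 held as many UMIs. The gene lists named 45 such symbols, 13 under the threshold, of which 11 had no UMI. Ccl21a and Ccl24, with 4 UMIs each, lay just outside the threshold, and Ccl19, with 21, lay just inside it. The tumours came from PyMT mice, whose mammary epithelium expresses middle T antigen of polyoma virus, and all 5 libraries are of such tumours. They were digested and enriched for viable cells. In fresh 10x 1 and fresh 10x 2 the cells were loaded fresh on the 10x Chromium droplet system, with the 3' version 2 chemistry. In stored 10x the digest first stood overnight at 4 °C (24 h by its title) until its viability by flow cytometry had dropped by 20% or more. BD 1 was loaded fresh on BD Rhapsody, a microwell system, with its whole transcriptome assay. BD 2 is titled fresh, but its files are named for 24 h. It therefore entered no main comparison, and its values stand beside the others. No label gives the number of mice, their age or strain, or whether the libraries share a tumour, so the p-values below measure only the spread between the fresh 10x libraries, which may be technical.

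Chemokines act through receptors on the cells they attract. Ligands of the CXC family that start with a glutamate-leucine-arginine motif, such as Cxcl1 and Cxcl2, draw neutrophils through Cxcr2, whereas Cxcl9 and Cxcl10 draw activated T cells through Cxcr3. Ccl2, Ccl7 and Ccl12 draw monocytes through Ccr2, Ccl3, Ccl4 and Ccl5 draw macrophages and T cells, Cxcl12 acts on Cxcr4, Cx3cl1 on Cx3cr1 and Xcl1 on Xcr1, the receptor of cross-presenting dendritic cells. In tumours, epithelium, fibroblasts and leukocytes can all be sources of such ligands.

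The libraries held up to 4186 cells and between 29166129 and 59957945 UMIs, with median depths of 8926 to 12474 UMIs per cell. The median share of mitochondrial UMIs was 6.14%, 6.99% and 7.17% in the 10x libraries, 15.2% in BD 1 and 19.8% in BD 2. Whether this share plays a part in the library differences below was not tested. Between 1 and 5 cell barcodes were shared by pairs of 10x libraries and 24 by the BD Rhapsody libraries. Cells were clustered without the chemokine ligands and named from marker genes as epithelial-like, fibroblast-like, macrophage-like, T-like, endothelial-like, mural-like (pericytes and smooth muscle) and neutrophil-like. Clusters led by mitochondrial genes and some shallow ones stayed unnamed. They held 5.49% and 8.52% of the cells in the fresh 10x pair, 15.4% after storage and 13.7% and 16.4% in BD 1 and BD 2. The part of these cells in the library differences was not tested. The 8 epithelial markers summed to 3654 to 7087 CPM (counts per 1000000 UMIs of the same library or class) in epithelial-like cells, the 7 fibroblast markers to 46143 to 66593 in fibroblast-like cells and the 8 macrophage markers to 10374 to 18748 in macrophage-like cells, with no marker of its own class at 0. The T-like class also carried natural killer (NK) cell genes, whose 7 markers summed to 457 to 2550.1 CPM beside 3827 to 4907 for the 8 T cell markers. Neutrophil-like cells numbered 2 to 12 per library and were kept out of any ranking of classes, as was any class with fewer than 20 cells in a library.

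The 32 ligands together took up 823 and 592 CPM in the fresh 10x pair, 992 after storage, 1724 in BD 1 and 1502 in BD 2. All 32 were detected in both BD Rhapsody libraries and 31 in each 10x library. Cxcl1, with 90440 of the 273193 ligand UMIs, was the most abundant, and it was also the first ligand in 4 of the libraries. Its share of the ligand UMIs was 23.2% in fresh 10x 1, 31.9% after storage and 34.9% and 39.1% in BD 1 and BD 2. In fresh 10x 2 the first ligand was Cxcl14, with 17.8%. UMIs count the 3' ends of molecules and were not scaled by gene length.

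In 21 of the 32 ligands the same class had the highest level in all 5 libraries, and in 4 more it did in 4 libraries. The 21 became 11 when only classes of at least 50 cells were ranked. By the class that led in the most libraries, with ties left in the order met, 10 ligands were macrophage-like, 10 fibroblast-like, 6 epithelial-like, 2 T-like and 2 mural-like. The mural-like pair, Cxcl1 and Ccl25, had that lead in only 2 libraries each, and Cxcl3 and Ccl19, with few UMIs, had no ranked class for it. These are descriptions of levels, with 1 value per library and class. Where 5 values follow one another below, they are for fresh 10x 1, fresh 10x 2, stored 10x, BD 1 and BD 2 in that order. The division was sharp for some ligands and loose for others. Among the ranked classes, Ccl6 was 131 times higher in macrophage-like cells than in the next class, by the mean over libraries. The unranked neutrophil-like cells carried it too. Among immune cells clustered alone, a sub-cluster led by S100a9 and S100a8 had the most Ccl6 in 2 of 5 libraries. Cxcl1, Ccl2 and Ccl11 differed by only 1.13, 1.12 and 1.09 times between their first and second classes.

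**Figure D1:**
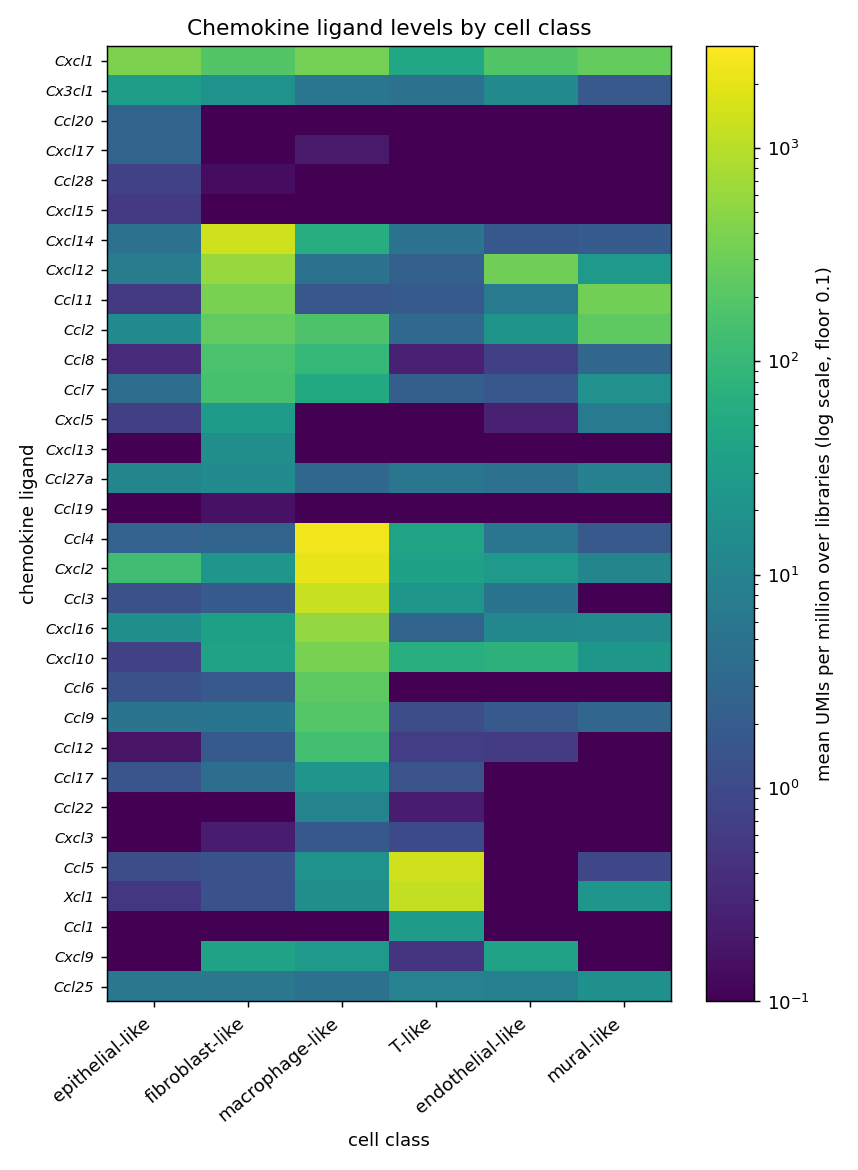
Mean level of each chemokine ligand (rows) in 6 cell classes (columns), as CPM on a log colour scale with a floor of 0.1, averaged over the libraries in which the class had at least 20 cells. Ccl4, Cxcl2 and Ccl3 are brightest in macrophage-like cells, Cxcl14 in fibroblast-like cells and Ccl5 and Xcl1 in T-like cells, while Cxcl1 is bright in several columns.

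Among the neutrophil attractants, Cxcl1 came from many classes. In epithelial-like cells its level was 208 and 88.1 CPM in the fresh 10x pair, 342 after storage, 701 in BD 1 and 657 in BD 2. Macrophage-like cells had 144, 116, 342, 560.2 and 605 CPM in the same order, so the epithelial-like and macrophage-like values lay close to each other in each library. The 8 epithelial markers, none at 0, summed to 172, 1370, 935, 338 and 468 CPM in the macrophage-like class. Its 5 mast cell markers reached 1520.1 CPM in BD 2 and at most 186 elsewhere. Among immune cells clustered alone, a sub-cluster of 86 cells was named epithelial-like, with macrophage markers second. The part of such cells or RNA in the macrophage-like Cxcl1 and Cxcl2 values was not tested. Mural-like cells had 284, 58.5 and 437 CPM of Cxcl1 in the 10x libraries and were its first class in fresh 10x 1 and stored 10x. Because the epithelial-like cells were so numerous, 88.4% of the Cxcl1 UMIs lay in them. Here and below, the share of a ligand's UMIs that lay in a class is taken over the clustered cells. Cells left out of the clustering do not count in it. Within the epithelium, Cxcl1 ranged from 52.2 to 703 CPM over 16 clusters with the libraries summed, and the cluster led by Mt2, Lalba and Aldoc was the highest of the sums. It held 24 cells in fresh 10x 1 and 342 in BD 2, and library by library it was first only in BD 1. The cluster led by Tspan1 and Tesc was first in 2 libraries (494 CPM in stored 10x and 868 in BD 2), and other clusters were first in the fresh 10x libraries. The Mt2 cluster also differed between libraries, with 307 and 115 CPM in the fresh 10x libraries, 433 after storage and 1063 and 864 in BD 1 and BD 2.

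Cxcl2, a close relative of Cxcl1, had its highest level among the ranked classes in macrophage-like cells of every library. The values were 1754 and 1208 CPM in the fresh 10x pair, 2837 after storage, 2283 in BD 1 and 2113 in BD 2. Epithelial-like cells had 116, 34.7, 170.3, 169 and 141 CPM. The fresh 10x pair was lowest, as for Cxcl1, but stored 10x lay above both BD libraries, where for Cxcl1 it lay below them. The few neutrophil-like cells carried more Cxcl2 than any other cells, at 5818 CPM in BD 1 and 10139 in fresh 10x 1, and at 58567 CPM in the 2 cells of fresh 10x 2. By UMIs, 57.6% of Cxcl2 was epithelial-like and 36.3% macrophage-like. Within epithelial-like cells of a library, the log levels of Cxcl1 and Cxcl2 correlated across cells with Pearson coefficients of 0.52, 0.41, 0.45, 0.50 and 0.46 over 1323, 1265, 2595, 2425 and 2757 cells, which share a library and differ in depth. Cxcl3, the third of these neighbours, had 65 UMIs in all, of which 35.4% lay in neutrophil-like and 30.8% in macrophage-like cells. Cxcl5, which binds the same receptor, was a fibroblast-like ligand with 67.7 and 41.0 CPM in the fresh 10x pair, 22.8 after storage, 11.3 in BD 1 and 5.68 in BD 2. Both BD Rhapsody values were the lowest.

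The genes of this group lie side by side. In the GENCODE vM21 annotation of GRCm38, 8 members lie on chromosome 5 between 90759360 and 95961068 (Cxcl5, Cxcl3, Cxcl15, Cxcl1, Cxcl2, Cxcl9, Cxcl10 and Cxcl13) and 12 on chromosome 11 between 70453983 and 83664683, among them Ccl2, Ccl7, Ccl11, Ccl12, Ccl8, Ccl5, Ccl9, Ccl6, Ccl3 and Ccl4. Cxcl1, Cxcl2, Cxcl3 and Ccl20 were picked for print from the ligands that were higher in BD 1 than in fresh 10x and hold a kappa-B match. A link between the rise and the match was not tested. The 150 bases before the start of each are printed below. They come from RefSeq on GRCm38.p6, 5′ to 3′ on the plus strand, at chr5:90891095-90891244, chr5:90903749-90903898, chr5:90785951-90786100 and chr1:83116616-83116765. Capitals mark matches on either strand to GGGNNNTTCC, a kappa-B core, some of which overlap each other, and in Cxcl3 also the TATAAA box.
Cxcl1: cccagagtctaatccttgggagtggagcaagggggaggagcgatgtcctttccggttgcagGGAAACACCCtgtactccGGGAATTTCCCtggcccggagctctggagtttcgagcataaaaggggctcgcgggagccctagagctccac
Cxcl2: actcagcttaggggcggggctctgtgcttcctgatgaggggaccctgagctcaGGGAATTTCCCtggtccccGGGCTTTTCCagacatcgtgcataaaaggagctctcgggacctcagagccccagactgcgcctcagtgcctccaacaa
Cxcl3: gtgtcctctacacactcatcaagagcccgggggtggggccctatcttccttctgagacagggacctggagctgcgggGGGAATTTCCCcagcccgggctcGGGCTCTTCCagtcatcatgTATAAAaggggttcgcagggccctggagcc
Ccl20: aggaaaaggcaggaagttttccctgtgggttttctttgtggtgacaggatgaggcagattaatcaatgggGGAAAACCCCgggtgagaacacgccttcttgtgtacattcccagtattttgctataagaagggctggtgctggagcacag
RefSeq promoters were matched by symbol for 24 of the 32 ligands. In the 250 bases before the start, GGGNNNTTCC was found on either strand for 7 of the 24 (Cxcl1, Cxcl2, Cxcl10, Ccl9, Ccl20, Ccl1 and Cxcl3), which is 29.2%, against 5.31% of the promoters of 27025 genes. TATAAA was found for 9 (37.5%, against 14.3%). GAAANNGAAA, a core of the interferon-stimulated response element, was found for 3 (Cxcl14, Cxcl10 and Ccl19; 12.5%, against 3.46%). Cxcl10 and Ccl9, which also hold a kappa-B match, were called higher in BD 1 in whole libraries too but are not printed. Ccl3, Ccl4, Ccl6, Ccl7, Ccl12, Ccl17, Cxcl12, Cxcl13 and Cxcl16 were called higher as well and are not among the 7, although not every ligand had a promoter. A match describes the letters and is not evidence of a bound site.

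The other epithelial-like ligands were low on average, and several were highest in particular clusters. Cx3cl1, the membrane-bound ligand of Cx3cr1, had 28.7 and 28.1 CPM in the fresh 10x pair, 33.4 after storage, 38.3 in BD 1 and 31.9 in BD 2. Its level was highest in the cluster led by the basal keratins Krt5 and Krt14 in every library, at 98.9, 77.8, 119, 152 and 149 CPM, whereas the other 15 epithelial-like clusters lay between 16.3 and 65.4 CPM with the libraries summed. In that cluster both BD Rhapsody values lay above all 3 of the 10x values. Ccl20, the ligand of Ccr6, held 98.6% of its UMIs in epithelial-like cells, with 0.382, 0.486, 2.11, 7.68 and 2.68 CPM, and the cluster led by Aldh1a3 and Klk10 had 33.7 CPM with the libraries summed. That sum rested on BD 1, with 116 of its 127 UMIs, whereas the Krt5 and Krt14 cluster was first in fresh 10x 2 and stored 10x (6.11 and 16.5 CPM of Ccl20). The Aldh1a3 cluster led Cxcl16 among epithelial-like clusters in all 5 libraries (106, 79.4, 99.8, 132 and 123 CPM) and Ccl9 as well (22.2, 15.1, 33.9, 27.6 and 37.0 CPM). Cxcl17, a mucosal chemokine, had 3.56, 1.01, 2.02, 4.05 and 2.65 CPM in epithelial-like cells. A cluster of 47 cells led by Gm4847 and Tph1 held 77 of its UMIs, at 87.3 CPM. That small cluster also held 85 of the 105 UMIs of Cxcl15, at 96.4 CPM, while the next epithelial-like cluster had 0.446. Ccl28, with 136 UMIs in all, stayed at or below 2.53 CPM in each epithelial-like cluster with the libraries summed.

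Fibroblast-like cells were the main source of Cxcl14, Cxcl12, Ccl11, Ccl7, Ccl8, Cxcl5 and Cxcl13 and a leading source of Ccl2. Cxcl14, a ligand that epithelium and stroma are known to make, reached 1587 and 1592 CPM in the fresh 10x pair, 909 after storage, 1436 in BD 1 and 1721 in BD 2. It held 94.5% of its UMIs there, and the stored library was the lowest. Cxcl12, which holds Cxcr4-bearing cells in tissues, had 330.2, 500.2, 664, 768 and 823 CPM, with the fresh 10x libraries lowest. Endothelial-like cells were its second source, with 252, 286, 496 and 244 CPM in the libraries that had at least 20 of them. Ccl11, the eosinophil attractant eotaxin, had 446, 436, 388, 284 and 307 CPM in fibroblast-like cells and 404, 306 and 312 CPM in mural-like cells of the 10x libraries, so both stromal classes made it at like levels.

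The monocyte attractants Ccl2 and Ccl7 were found in stroma and, Ccl7 at a lower level, in macrophage-like cells. Epithelial-like cells had lower levels of both, at 20.2, 5.83, 12.2, 18.4 and 14.2 CPM of Ccl2 and 1.74, 1.09, 6.45, 4.88 and 5.05 of Ccl7. They nonetheless held more UMIs of each than macrophage-like cells in every library. For Ccl2 these were 477, 144, 550, 821 and 556 UMIs, against 58, 72, 171, 627 and 393. Fibroblast-like cells had 347, 309.5, 185, 165 and 277 CPM of Ccl2, and macrophage-like cells had 199, 80.6, 167, 223 and 188. Mural-like cells had 290.0 and 329.5 CPM of Ccl2 in the fresh 10x libraries. In the fibroblast-like cells of fresh 10x 1, 1 cell held 36.4% of the Ccl2 UMIs, and without it the level there was 222 CPM. Ccl7 had 128, 144, 138, 176 and 154 CPM in fibroblast-like cells, against 61.8, 14.6, 36.1, 59.8 and 86.2 in macrophage-like cells. The log levels of Ccl2 and Ccl7 correlated across fibroblast-like cells with Pearson coefficients of 0.45 to 0.53 in the libraries. Ccl8 had 149, 278, 133, 90.4 and 115 CPM in fibroblast-like cells. In BD 2 it was higher in macrophage-like cells, at 208 CPM, of which 1 cell held 74.2%.

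The fibroblast-like cells fell into a cluster led by Efemp1 and a cluster led by Col8a1, and the ligands divided between them. Cxcl12 had 1272, 1239, 938, 999 and 1031 CPM in the Efemp1 cluster and 126, 113, 122, 153 and 168 CPM in the Col8a1 cluster. Cxcl13, the B cell attractant, had 2.14, 3.02, 25.8, 66.1 and 20.0 CPM in the Efemp1 cluster and was at 0 in the Col8a1 cluster of every library except BD 1, where it was 1.12. The Efemp1 cluster was also higher in Cxcl1 in all 5 libraries. Ccl2 went the other way, with 122, 275, 92.9, 112 and 194 CPM in the Efemp1 cluster and 396, 328, 367, 306 and 538 in the Col8a1 cluster. Cxcl14 was likewise higher in the Col8a1 cluster in all 5 libraries. The atypical receptors Ackr3, which takes up Cxcl12, and Ackr2, which takes up inflammatory CC chemokines, were higher in the Efemp1 cluster (145, 144, 179, 414 and 256 CPM of Ackr3, against 27.8, 17.4, 42.8, 65.7 and 48.1). The share of fibroblast-like cells in the Efemp1 cluster was 17.9% and 35.0% in the fresh 10x pair, 69.8% after storage, 70.4% in BD 1 and 73.2% in BD 2. Fresh 10x thus had mostly Col8a1 cells and the other libraries mostly Efemp1 cells.

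**Figure D2:**
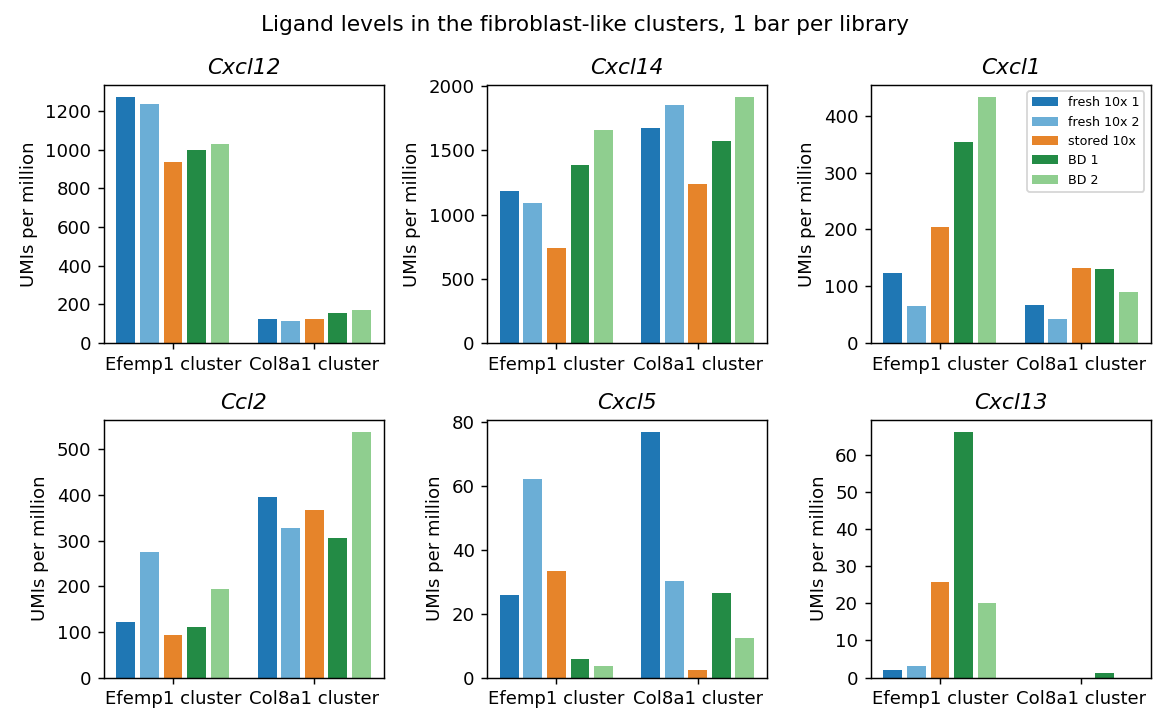
Levels of 6 ligands in the 2 fibroblast-like clusters, as CPM on linear axes that start at 0, with 1 bar per library. Cxcl12 is 938 or more in every library in the Efemp1 cluster and 168 or less in the Col8a1 cluster, Ccl2 is higher in the Col8a1 cluster, and Cxcl13 is confined to the Efemp1 cluster apart from 1.12 in BD 1.

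Macrophage-like cells carried the largest number of inflammatory CC ligands. Ccl4, an attractant of macrophages and T cells, had 2138 and 1081 CPM in the fresh 10x pair, 2365 after storage, 3433 in BD 1 and 3145 in BD 2. Of its UMIs in clustered cells, 95.8% lay in macrophage-like cells. Ccl3, its neighbour in the genome, had 1116, 426, 1261, 1835 and 1794 CPM. The order of the libraries was the same for both, with fresh 10x 2 lowest and BD 1 highest. Across macrophage-like cells of a library the log levels of Ccl3 and Ccl4 correlated with Pearson coefficients of 0.82, 0.71, 0.71, 0.73 and 0.75 over 45, 108, 183, 218 and 231 cells. When the immune cells were clustered again on their own, the sub-cluster led by Il1a and Cd83 had the most of both ligands in all 5 libraries, with 4250.3, 2662, 4285, 6003 and 5290.2 CPM of Ccl4. Cxcl16, the ligand of Cxcr6, had 556, 373, 506, 696 and 659.8 CPM in macrophage-like cells, and Cxcl10 had 247, 304, 391, 495 and 459.6. A sub-cluster of 23 cells led by the interferon-induced genes Rsad2, Oasl1 and Ifit2 had 2275 CPM of Cxcl10.

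Ccl6 and Ccl9, a pair of mouse chemokines of myeloid cells, were lower in fresh 10x than in the other libraries. Ccl6 had 61.8 and 99.6 CPM in the fresh 10x libraries, 334 after storage and 431 and 256 in BD 1 and BD 2. For Ccl9 the values were 54.9, 104, 221, 352 and 266 CPM. The cluster led by Lyz2 had 1 cell in fresh 10x 1 and 40, 75, 73 and 84 cells in the others. Ccl6 had 155, 588, 884 and 506 CPM there in those 4 libraries, against 53.3, 180.2, 173 and 129 in the cluster led by C1qc. Ccl9 was higher in the Lyz2 cluster in stored 10x, BD 1 and BD 2 (352, 605 and 358 CPM, against 141, 208 and 219), but not in fresh 10x 2 (83.8 against 121). Ccl12, a monocyte attractant, was even across the libraries, at 134, 89.5, 136, 142 and 161 CPM. The genes Ctsl, Hal and Folr2 led an immune sub-cluster in which Ccl8 was highest in 4 of 5 libraries, at 473, 373, 132 and 1051 CPM, and at 0 UMIs in the 13 cells of fresh 10x 1. Ccl17, a ligand of Ccr4, was at 0 in the C1qc cluster of every library, and its macrophage-like level of 0, 7.84, 12.7, 79.4 and 13.9 CPM came from the Lyz2 cluster. Epithelial-like cells had 1.61, 1.98, 2.05, 1.03 and 0.994 CPM of Ccl17. They held more of its UMIs than macrophage-like cells in every library except BD 1 (38, 49, 92, 46 and 39, against 0, 7, 13, 223 and 29). When the immune cells were clustered alone, Ccl17 had 20.1 CPM in fresh 10x 2, 16.1 after storage and 86.4 and 167 in the BD pair in a sub-cluster of 77 cells led by Btla and Xcr1, which held no Ccl17 UMI in fresh 10x 1. The 9 dendritic cell markers summed to 109.8, 159, 142, 224 and 272 CPM in the macrophage-like class, and a coarser clustering set a dendritic-like cluster of 61 cells apart. The part of such cells in the macrophage-like values was not tested.

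T-like cells were the source of Ccl5 and Xcl1. Ccl5 (RANTES) had 719.7 and 1944 CPM in the fresh 10x pair, 2289.7 after storage, 1236 in BD 1 and 830.1 in BD 2, against a mean of 18.8 CPM in the next class. In fresh 10x 2, 1 of the 40 T-like cells held 42.3% of the Ccl5 UMIs, and 1163 CPM were left without it. The sub-cluster led by Gzmb, a cytotoxic granule gene, had 4295 CPM of Ccl5. Xcl1 (lymphotactin) had 1492, 1519, 1263, 596 and 908 CPM in T-like cells, with both BD Rhapsody values lowest. The sub-cluster led by the NK gene Ncr1 had 2122, 1987, 1600.3, 1747 and 1399.6 CPM of Xcl1. NK markers in the T-like class were highest in fresh 10x 1 (2550.1 CPM) and lowest in BD 2 (457 CPM), and their part in the Xcl1 values was not tested. The 5 plasma cell markers in the T-like class summed to 6.57 and 0 CPM in the fresh 10x pair, 20878 after storage and 74242 and 24161 in the BD pair. In fresh 10x 1, 3 of them were at 0, in fresh 10x 2 all 5, and elsewhere none, and their part in the Ccl5 and Xcl1 values was not tested.

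Ccl27a and Ccl25 had no clear source. Ccl27a had 11.8, 12.3, 17.0, 8.62 and 7.29 CPM in epithelial-like cells and 20.2, 15.1, 17.2, 10.4 and 9.20 CPM in fibroblast-like cells. Ccl25, a ligand known from the thymus and gut, had between 1.62 and 26.8 CPM wherever it was detected in a ranked class. Both genes overlap a gene on the opposite strand in the annotation (Il11ra1 and Elavl1), and their UMIs are uncertain because strand use in the counting is not given in the sources used here. The same holds for Cxcl10 with Art3, Cxcl16 with Zmynd15, Xcl1 with Gm20743, Ccl2 with Gm17268, Ccl6 with E230016K23Rik and Cxcl17 with 4732471J01Rik.

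Some ligands rested on a single cell in a library. Cxcl9, an interferon-gamma target, had 51.2% of its UMIs in 1 cell of fresh 10x 1 and 53.4% in 1 cell of fresh 10x 2, and the top cell held 82.0% after storage, 36.7% in BD 1 and 24.1% in BD 2. The top cell was fibroblast-like in fresh 10x 1 and stored 10x and macrophage-like in the other libraries. Ccl1 had 61 UMIs in stored 10x, 98.4% of them in 1 T-like cell, and 1 to 4 UMIs in each of the other libraries. All 15 UMIs of Ccl22 in fresh 10x 2 lay in 1 macrophage-like cell. Cxcl13 had 64.7% in 1 cell after storage and 25.8% and 82.5% in BD 1 and BD 2. Ccl17 had 64.8% in 1 macrophage-like cell of BD 1. At the other end, Cxcl1, Cxcl16, Cx3cl1 and Ccl27a were spread over many cells in each library.

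**Figure D3:**
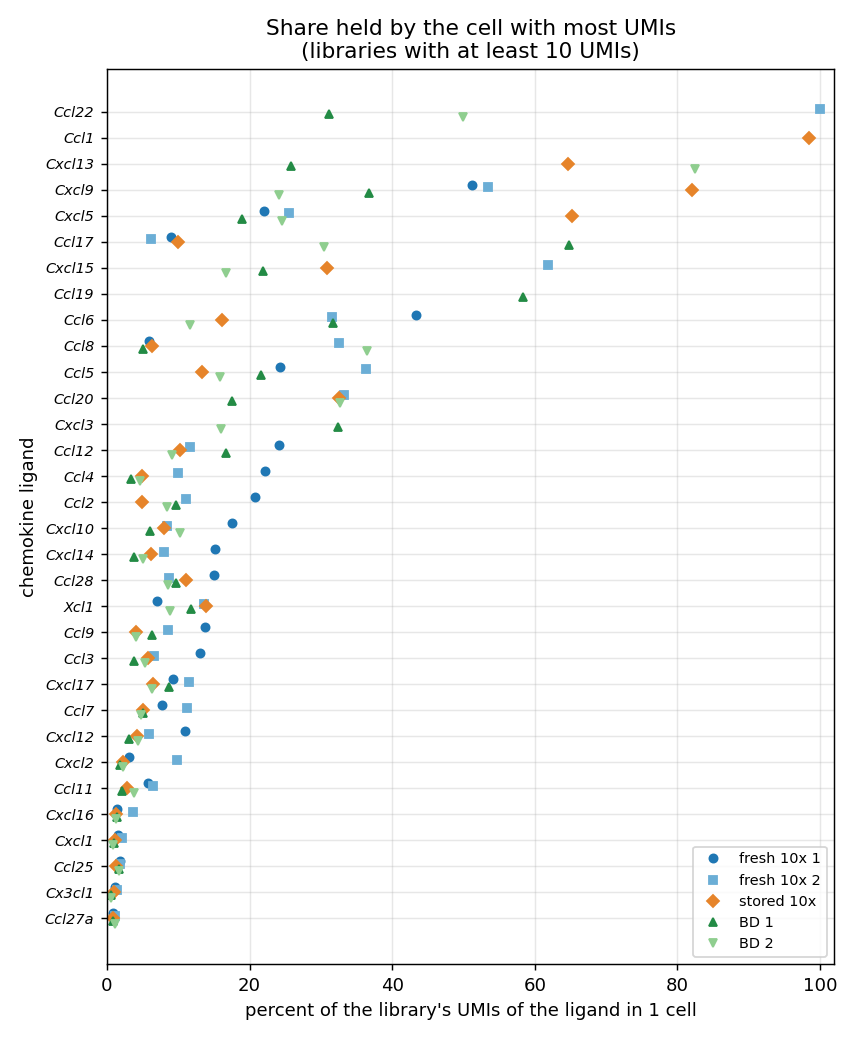
Share of each ligand's UMIs held by the single cell with most of them, in percent, for libraries with at least 10 UMIs of the ligand, 1 mark per library. Ccl22 reaches 100% in fresh 10x 2, Ccl1 98.4% and Cxcl9 82.0% in stored 10x, and Ccl27a, Cx3cl1 and Cxcl1 lie near 0.

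BD 1 was compared with the fresh 10x pair to ask how the ligands differed between the platforms on fresh cells. This is 1 library against 2, with 1 residual degree of freedom. Platform, library and any difference between tumours cannot be told apart in it. Whole-library sums also do not separate the number of cells of a class from the level in each cell. Of the 30 ligands tested in whole libraries, 18 were called at an adjusted p under 0.05, 15 higher and 3 lower in BD 1, beside 41.4% of all 15859 genes tested. Their median log2 fold change was 0.71, against 0.01 for all genes. Macrophage-like cells gave 0.999% of the UMIs of fresh 10x 1, 2.98% of fresh 10x 2 and 4.69% of BD 1.

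The macrophage-like ligands rose in whole libraries. Ccl3 had 12.3 and 14.2 CPM in fresh 10x and 91.5 in BD 1, a log2 fold change of 2.65 (SE 0.13, adjusted p = 0.00138). Ccl4 had 23.2, 33.9 and 173 CPM (2.46, SE 0.22, adjusted p = 0.00278). BD 1 was well above both fresh libraries for each. Ccl6 rose from 3.57 and 3.80 to 22.6 CPM (2.48, SE 0.16, adjusted p = 0.00186) and Ccl9 from 5.73 and 6.63 to 23.3 CPM (1.78, SE 0.16, adjusted p = 0.00282). Cxcl16 (0.92), Cxcl10 (0.65) and Ccl12 (1.33) also rose by log2 fold change, as did Ccl17 (1.09). Most Ccl17 UMIs of each fresh 10x library lay in epithelial-like cells, where its log2 fold change in BD 1 was -0.96 and not called. Ccl17 had 1.92, 2.16 and 4.79 CPM, and without the top cell of each library 1.75, 2.03 and 1.69, with BD 1 then the lowest.

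Of the neutrophil attractants, Cxcl1, Cxcl2 and Cxcl3 were called higher in BD 1, whereas Cxcl5, at 6.86 and 3.26 CPM in fresh 10x and 1.77 in BD 1, was not called (-1.66, adjusted p = 0.0634). Cxcl1 had 191 and 84.8 CPM in fresh 10x and 602 in BD 1, a log2 fold change of 1.98 (SE 0.46, adjusted p = 0.0265), which became 2.72 without fresh 10x 1. Cxcl2 had 123, 73.0 and 248 CPM (1.20, SE 0.31, adjusted p = 0.0350). The fresh libraries differed from each other more than 1.5 times in both genes, but BD 1 lay above both. Neither call held with DESeq2 or without the filter on low counts, where the adjusted p of Cxcl1 over the 4 alternatives ran from 0.00673 to 0.112. Cxcl3 had 0 and 2 UMIs in fresh 10x and 37 in BD 1, a ratio of 18.3 (95% interval 4.71 to 156, counting error only). Its fitted log2 fold change of 3.94 became 7.75 without fresh 10x 2, where the other fresh library had no UMI and the value depends on the prior count, and its call was lost without the filter on low counts, as was that of Ccl12. Ccl20 rose from 0.309 and 0.400 to 5.77 CPM (3.87, SE 0.35, adjusted p = 0.00281).

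Of the stromal ligands, Cxcl12 rose from 47.5 and 44.9 to 94.7 CPM (0.90, SE 0.10, adjusted p = 0.00447) and Ccl7 from 14.3 and 11 to 28.9 CPM (1.05). Cxcl13 had 1 and 2 UMIs in fresh 10x and 325 in BD 1, a ratio of 107 (95% interval 36.3 to 521, counting error only). Cxcl9, Ccl25 and Ccl27a fell. Cxcl9 went from 8.64 and 5.79 to 0.50 CPM (log2 fold change -3.98, SE 0.42, adjusted p = 0.00382), and without the top cell of each library the values were 4.22, 2.70 and 0.317 CPM. Ccl25 (-1.24) went from 7.65 and 9.36 to 3.97 CPM, and Ccl27a (-0.65) from 11.8 and 12.3 to 8.44, a call that was lost with DESeq2 and without the filter. The call of Ccl17 was lost with DESeq2 and with BD 2 joined to BD 1. Cxcl14 (149, 105 and 167 CPM), Ccl2 (55.1, 32.4 and 44.9), Ccl11 (46.1, 32.3 and 32.3), Cx3cl1 (26.4, 25.3 and 32.8), Ccl5 (8.64, 13.3 and 19.0), Ccl8 (14.6, 20.1 and 12.7), Xcl1 (17.5, 10.8 and 8.37), Cxcl5 (6.86, 3.26 and 1.77) and Cxcl17 (2.95, 0.866 and 3.25) were not called.

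**Figure D4:**
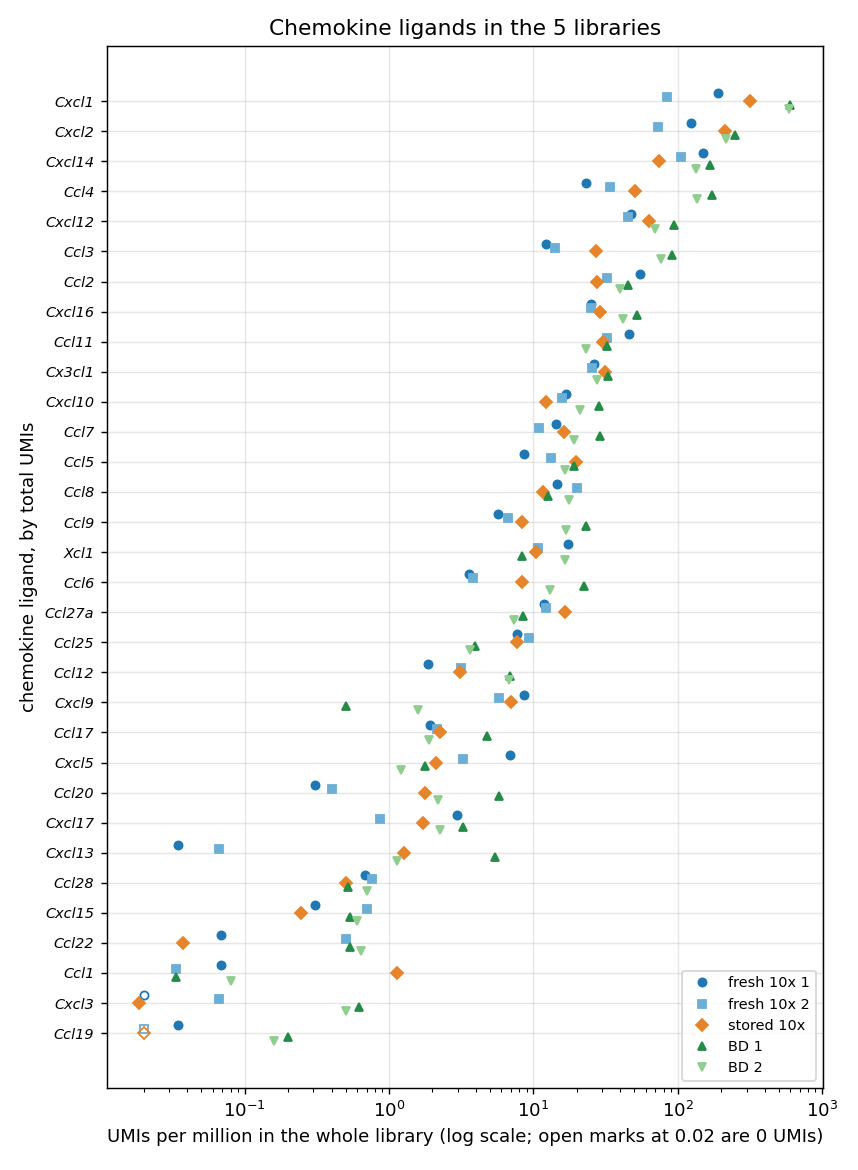
Level of each ligand in the 5 whole libraries, as CPM on a log axis, 1 mark per library, with open marks at 0.02 for 0 UMIs. The BD Rhapsody marks lie right of the fresh 10x marks for Ccl3, Ccl4, Ccl6, Ccl9 and Ccl20 and left of them for Cxcl9, Ccl25 and Ccl27a.

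Within epithelial-like cells 7 of 25 ligands tested were called, 5 higher and 2 lower in BD 1, which is below the 44.0% of all genes called there. Their median log2 fold change was 0.33, against 0.01 for all genes. Cxcl1 rose by 2.07 on the log2 scale (SE 0.42, adjusted p = 0.00852; 2.87 without fresh 10x 1; not called with DESeq2), and Ccl20 by 3.97 (SE 0.32, adjusted p = 2.87e-04). Epithelial-like Cxcl2 was 116, 34.7 and 169 CPM and was not called. Ccl25 (-1.22) and Ccl27a (-0.65) fell here too. The remaining calls were ligands with another main source and low epithelial-like levels: Ccl4 (0.509, 1.05 and 4.5 CPM; 2.36, and 2.98 without fresh 10x 2), Ccl3 (0.382, 0.607 and 1.95 CPM; 1.81) and Ccl7 (1.74, 1.09 and 4.88 CPM; 1.62). In the same cells the 8 macrophage markers, none at 0, summed to 7.26, 8.66 and 15.7 CPM, and the 7 fibroblast markers, none at 0, to 86.4, 75.4 and 144 CPM. The part of RNA from other cells in these 3 calls was not tested.

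Within macrophage-like cells 6 of 19 ligands tested were called, beside 10.2% of all genes. Their median log2 fold change was 0.42, against 0.02 for all genes. Ccl6 rose by 2.08 on the log2 scale (SE 0.43, adjusted p = 0.00135), Ccl9 by 1.80 (SE 0.44, adjusted p = 0.00658; 2.43 without fresh 10x 2; not called with DESeq2) and Cxcl1 by 1.82 (SE 0.42, adjusted p = 0.00358). In the C1qc cluster alone the rises of Ccl6 and Ccl9 were 1.24 and 0.80, both still called. As CPM of the macrophage-like class, the levels of Ccl3, Ccl4, Cxcl2, Cxcl16, Cxcl10 and Ccl12 given above did not pass the test. Ccl3 and Ccl4 nonetheless had their highest CPM in BD 1. Macrophage-like cells were deeper in BD 1 (median 11269.5 UMIs, against 6028 and 5767 for the fresh pair), and amounts per cell were not tested. The log2 fold change of Ccl3 was 0.95 (adjusted p = 0.129), and 2.00 without fresh 10x 1. It was called under 2 of 6 alternatives, with adjusted p from 5.41e-05 to 0.401. That of Ccl4 was 0.78 (adjusted p = 0.142), and 1.56 without fresh 10x 1, and it was called under 1 of 6, with adjusted p from 4.12e-05 to 0.448. The other 3 calls rested on few cells, and DESeq2 gave no adjusted p for them. Ccl17 rose by 3.53 (SE 0.64, adjusted p = 2.41e-04) from 0 and 7 UMIs to 223, of which 186 lay in 1 cell, and 13.3 CPM remained without that cell. Its fold change was 9.92 without fresh 10x 2, where the remaining fresh library was at 0 and the value depends on the prior count, and it was not called with BD 2 joined to BD 1. Cxcl9 fell by 4.31, but 1 cell of fresh 10x 2 held 94.9% of that library's UMIs, and without fresh 10x 2 the difference was -0.06. Xcl1 fell by 3.27 (2.40 without fresh 10x 1 and 3.91 without fresh 10x 2), from 16 UMIs in 3 cells and 19 UMIs in 2 cells to 12 UMIs in 2 cells. Beside it, the 8 T cell markers in macrophage-like cells summed to 295 CPM in fresh 10x 1, 173 in fresh 10x 2 and 67.3 in BD 1, with none at 0 in fresh 10x and 1 at 0 in BD 1. Their part in the fall of Xcl1 was not tested.

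Within fibroblast-like cells 15 of 20 ligands tested were called, 4 higher and 11 lower, beside 44.6% of all genes. Their median log2 fold change was -0.81, against 0.02 for all genes. Cxcl1 rose by 2.09 on the log2 scale (SE 0.20, adjusted p = 7.45e-07), from 76.5 and 49.9 to 293 CPM. Its rise was 1.79 in the Efemp1 cluster and 1.15 in the Col8a1 cluster, both called. Cxcl2 rose by 2.64 (3.25 without fresh 10x 2), from 2.66 and 5.71 to 26.9 CPM, and was not called in the Col8a1 cluster alone (0.82). Cxcl13 had 1 and 2 UMIs in fresh 10x and 316 in BD 1, a ratio of 73.4 (95% interval 24.9 to 358, counting error only), and its fitted log2 fold change of 6.02 was 6.82 without fresh 10x 2 and 5.45 without fresh 10x 1. Cxcl12 rose by 0.78 in the class as a whole. Inside the Efemp1 cluster, however, its log2 fold change was -0.48 (adjusted p = 0.0597) and inside the Col8a1 cluster 0.28 (adjusted p = 0.191), over a range of 7.04e-06 to 0.191 for the 7 alternatives. The part of the cluster shares given above in the whole-class value was not tested.

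Among the ligands that fell in fibroblast-like cells, Cxcl5 fell by 2.39 (SE 0.28, adjusted p = 5.31e-06) and Ccl2 by 1.10 (SE 0.18, adjusted p = 1.31e-04) on the log2 scale. The fall of Ccl2 was 0.31 and not called in the Col8a1 cluster alone. Ccl11 fell by 0.74 and Cxcl10 by 1.42 (0.79 without fresh 10x 1), and neither was called in the Efemp1 cluster alone. Ccl8 fell by 1.34, which DESeq2 did not call. Cxcl9 fell by 4.64 (3.95 without fresh 10x 1), and without the top cell of each library it had 12.2, 7.86 and 1.54 CPM, so BD 1 stayed below both. Cxcl16 (-0.69), Ccl27a (-0.88), Ccl25 (-1.30) and Ccl17 (-2.16) were lower with calls that several alternatives lost. Ccl12 had 4 and 13 UMIs in fresh 10x and 2 in BD 1, a ratio of 0.082 (95% interval 0.00919 to 0.345, counting error only), and its log2 fold change of -3.63 was -4.39 without fresh 10x 1 and -2.28 without fresh 10x 2. The 7 mural markers in fibroblast-like cells summed to 1306, 1267 and 254 CPM in fresh 10x 1, fresh 10x 2 and BD 1, with 1 at 0 in BD 1, and mural-like cells also carried Ccl2 and Ccl11. Their part in the falls was not tested.

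**Figure D5:**
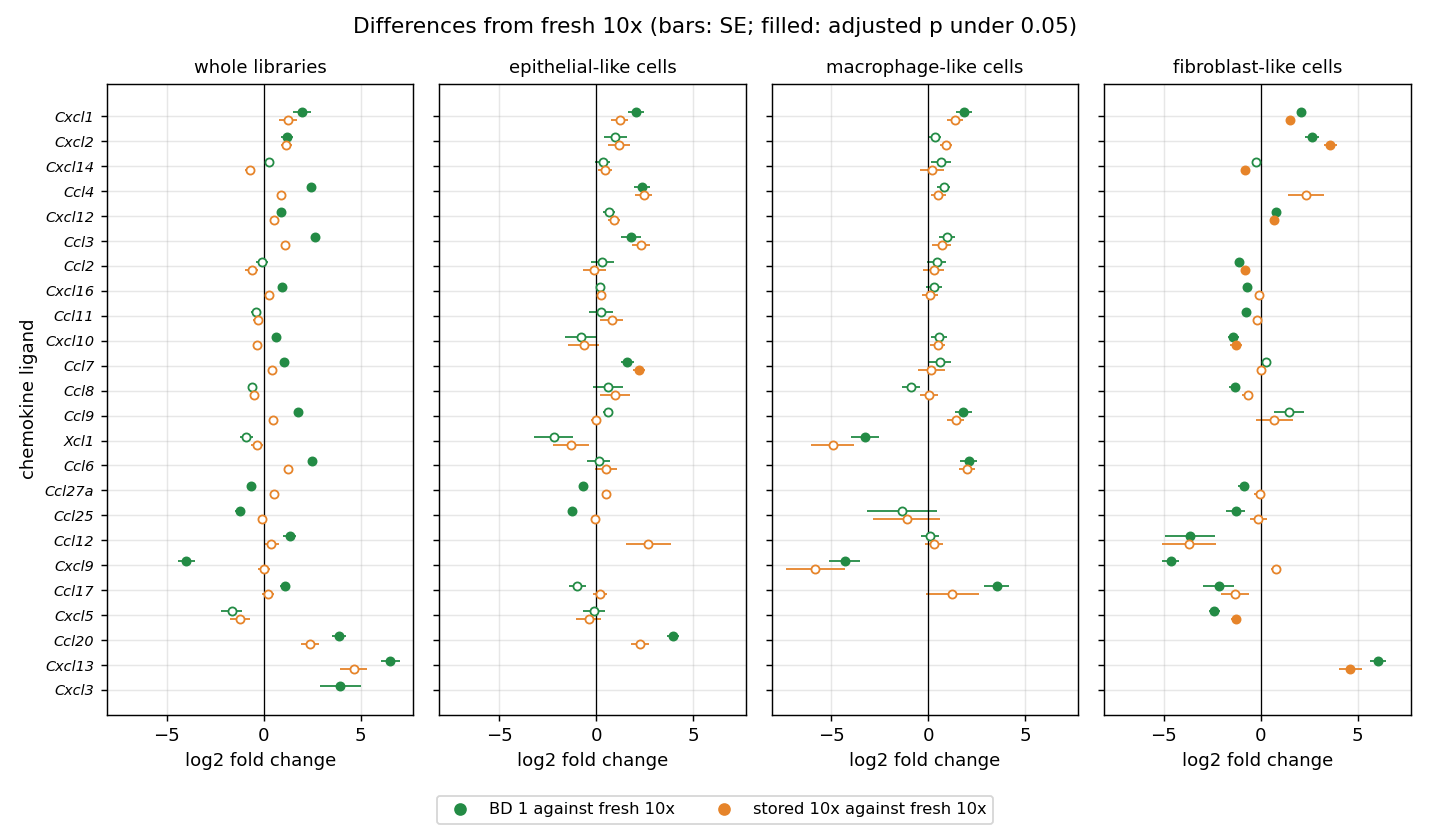
Log2 fold change of each ligand in BD 1 (green) and stored 10x (orange) against fresh 10x, in whole libraries and in 3 cell classes, with bars for the standard error and filled marks for an adjusted p under 0.05. The 2 comparisons share the fresh 10x libraries. Filled green marks lie mostly right of 0 in whole libraries and left of 0 in fibroblast-like cells, and filled orange marks appear only in fibroblast-like cells and for Ccl7 in epithelial-like cells.

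Stored 10x was compared with the same fresh 10x libraries to ask how the ligands differed after the digest had stood in the cold. The comparison shares its controls with the one above, so the values of both are not independent. In whole libraries 0 of 30 ligands passed edgeR's test, beside 0.228% of all 15353 genes. At an unadjusted p under 0.05 there were 14, beside 2612 of all 15353 genes, and DESeq2 called 2 ligands (Ccl3 and Ccl4). The median log2 fold change of the 30 ligands was 0.30, against 0.00 for all genes. The ligands above both fresh libraries in stored 10x were, among others, Cxcl1 (316 CPM), Cxcl2 (211), Ccl3 (27.0), Ccl4 (50.7), Cxcl12 (62.9), Cx3cl1 (31.2), Cxcl16 (28.9), Ccl5 (19.8), Ccl6 (8.34) and Ccl20 (1.78). Those below both were, among others, Cxcl14 (73.9), Ccl11 (30.2), Ccl2 (27.5), Cxcl10 (12.2), Ccl8 (11.7) and Cxcl5 (2.10). None of these passed the adjusted threshold of edgeR.

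Within epithelial-like cells of stored 10x, 1 of 26 ligands was called, beside 0.805% of all genes, with a median log2 fold change of 0.37. It was Ccl7, with 1.74 and 1.09 CPM in fresh 10x and 6.45 in stored 10x (2.20, SE 0.32, adjusted p = 0.0408). Of the 290 epithelial-like Ccl7 UMIs in stored 10x, 44 lay in 1 cell, and no other cell of that library held more. The 7 fibroblast markers, none at 0, summed to 133 CPM in the epithelial-like cells of stored 10x, against 86.4 and 75.4, and their part was not tested. Within macrophage-like cells 0 of 19 were called, beside 0.181% of all genes, with none called by DESeq2 and a median of 0.28. At an unadjusted p under 0.05 there were 7, beside 314 of all 8275 genes. Ccl6 in macrophage-like cells, at 61.8, 99.6 and 334 CPM, was among those that did not pass.

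Fibroblast-like cells held more called ligands after storage than the other scopes. There 8 of 21 ligands were called, 4 higher and 4 lower, beside 11.7% of all genes, with a median of -0.09. Cxcl2 rose from 2.66 and 5.71 to 48.2 CPM (3.59, SE 0.32, adjusted p = 5.08e-06; 4.54 in the Col8a1 cluster alone, and 2.67 and not called in the Efemp1 cluster alone). Cxcl1 rose from 76.5 and 49.9 to 181 CPM (1.5, SE 0.20, adjusted p = 2.47e-04). The 8 epithelial markers, none at 0, summed to 767 CPM in the fibroblast-like cells of stored 10x, against 134 and 117 in fresh 10x, and epithelial-like cells carry both ligands. Whether these markers play a part in the rises was not tested. Cxcl13 had 67 UMIs against 1 and 2, a ratio of 26.1 (95% interval 8.54 to 130, counting error only), with 65.7% of them in 1 cell, and 4.01 without fresh 10x 1 and 5.36 without fresh 10x 2 for a fitted log2 fold change of 4.61.

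Cxcl14 fell from 1587 and 1592 to 909 CPM (log2 fold change -0.80, SE 0.15, adjusted p = 0.00282). It was lower in stored 10x than in both fresh libraries in either cluster, at 742 against 1182 and 1088 CPM in the Efemp1 cluster and 1241 against 1674 and 1856 in the Col8a1 cluster, and it was not called in the Efemp1 cluster alone (-0.59). The rise of Cxcl12 by 0.69 became -0.40 in the Efemp1 cluster (adjusted p = 0.442) and 0.01 in the Col8a1 cluster (adjusted p = 0.980), with adjusted p from 7.51e-04 to 0.980 over the 6 alternatives. Ccl2 fell by 0.83 in the class and was at 0.01 in the Col8a1 cluster. Cxcl10 fell by 1.28 (0.69 without fresh 10x 1) and was at 0.05 in the Efemp1 cluster. Cxcl5 fell by 1.27, and 1 cell held 82.0% of its UMIs in stored 10x. The falls of Ccl2, Cxcl10 and Cxcl5 were not called by DESeq2.

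BD 2 is set beside BD 1 with no test, because its labels conflict. Whole-library Cxcl1 was 587 CPM (exact Poisson 95% interval 581 to 594, counting error only) beside 602 (596 to 608) in BD 1. Ccl4 was 135 CPM (132 to 139) beside 173 (169.8 to 176), and Ccl3 76.9 (74.4 to 79.3) beside 91.5 (89.1 to 94.0). The counting intervals of BD 1 and BD 2 did not meet for these 3 ligands, nor for most of the other abundant ones, among them Cxcl2, Cxcl14, Cxcl12 and Ccl2. Larger gaps were seen for Cxcl13 (1.14 against 5.42 CPM), Ccl20 (2.20 against 5.77), Ccl17 (1.90 against 4.79) and Cxcl9 (1.58 against 0.50), ligands that few cells carried.

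The receptors of these ligands are mostly leukocyte genes. Of the 18 listed, 13 were tested in whole libraries and 7 (53.8%) were called, all higher in BD 1, beside 41.4% of all genes called in either direction. Cx3cr1 had 7.58, 14.7 and 55.0 CPM in fresh 10x 1, fresh 10x 2 and BD 1 (2.17), Ccr2 2.09, 4.46 and 17.3 (2.26, and 2.93 without fresh 10x 2) and Cxcr4 10.1, 14.6 and 30.9 (1.19). Cxcr2, the receptor of Cxcl1 and Cxcl2, had 0.206, 0.266 and 3.77 CPM (3.84), and in BD 1 167 of its UMIs lay in 12 neutrophil-like cells. Ccr1 (1.47) and Ccr9 (3.41, and 4.67 without fresh 10x 2, from 1 and 4 UMIs) were called as well. The call of Ccr1 was lost without the filter on low counts and that of Ccr9 with DESeq2. Macrophage-like cells, whose share of the UMIs is given above, had Cx3cr1 as their highest receptor, at 673, 433, 546, 1103 and 1104 CPM in fresh 10x 1, fresh 10x 2, stored 10x, BD 1 and BD 2, so the receptor of Cx3cl1 was highest in a class other than its ligand's. In T-like cells it was Cxcr6 (249.8, 249, 219, 272 and 132 CPM), the receptor of the macrophage-like ligand Cxcl16. Cxcr4 was the highest receptor in endothelial-like cells (46.1, 73.7, 52.3 and 52.8 CPM where ranked), in epithelial-like cells (6.49, 11.2, 7.0, 16.6 and 15.9 CPM) and, with 1 UMI over the ranked libraries, in mural-like cells. In fibroblast-like cells it was Cx3cr1, at 1.90 to 16.1 CPM. Xcr1, the receptor of Xcl1, was found mainly in an immune sub-cluster of 77 cells led by Btla, at 226 CPM.

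Per class, receptor calls were few. In epithelial-like cells 2 of 4 tested receptors were higher in BD 1, beside 44.0% of all genes called, among them Cxcr2 (2.76, and 3.51 without fresh 10x 2, not called with DESeq2). In macrophage-like cells 2 of 11 were lower in BD 1, beside 10.2% of all genes called. Ccr7 fell by 3.78 (1.76 without fresh 10x 2), but 55 of its 56 UMIs in fresh 10x 2 lay in 1 macrophage-like cell. Cxcr6 had 9 and 13 UMIs in fresh 10x and 0 in BD 1, which is at least 17.4-fold lower with 3 UMIs set as the floor of BD 1. The T cell markers in that class, at 295, 173 and 67.3 CPM, moved with it, and their part was not tested. In fibroblast-like cells 0 of 1 was called in BD 1, with 1 at an unadjusted p under 0.05, beside 5834 of all 11330 genes. In stored 10x, 0 receptors were called by edgeR among 12 tested in whole libraries (1 at an unadjusted p under 0.05), 2 in epithelial-like cells (1), 11 in macrophage-like cells (4) and 1 in fibroblast-like cells (0). Of all genes, 2612 of 15353, 2283 of 13910, 314 of 8275 and 2828 of 11260 had such a p in these scopes, in the same order.

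The atypical receptors bind chemokines without the usual signal, and 4 of the 5 tested in fibroblast-like cells were higher in BD 1, beside 44.6% of all genes called there in either direction. They were Ackr3 (48.7, 60.8 and 319 CPM; 2.45, SE 0.18, adjusted p = 4.31e-08), Ackr1 (3.42, 3.12 and 34.7 CPM; 3.28), Ackr2 (4.18, 7.79 and 28.2 CPM; 2.18) and Ackr4 (1.90, 0.519 and 12.7 CPM; 3.14, and 4.49 without fresh 10x 1). Ccrl2 was not called (-0.21, adjusted p = 0.838). In stored 10x, 3 of the 4 tested were higher, beside 11.7% of all genes called, namely Ackr1 (21.3 CPM; 2.68), Ackr2 (17.9 CPM; 1.63) and Ackr3 (133 CPM; 1.30). In whole libraries 3 of 5 were higher in BD 1 (Ackr2, Ackr3 and Ccrl2), beside 41.4% of all genes called. In whole stored 10x 0 were called by edgeR, and 3 had an unadjusted p under 0.05, beside 2612 of all 15353 genes. The Efemp1 cluster, which held a larger share of the fibroblast-like cells in BD 1 and stored 10x than in fresh 10x, carried more Ackr2 and Ackr3, as given above. In the Efemp1 cluster alone the calls of Ackr2 and Ackr4 in BD 1 and of Ackr2 and Ackr3 in stored 10x were lost, with adjusted p of 0.195, 0.293, 0.943 and 0.770, the highest over the alternatives, whose lowest were 3.50e-11, 1.94e-08, 2.73e-04 and 4.00e-10. DESeq2 and the grouping of BD 2 with BD 1 also lost the whole-library call of Ackr2.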

How the data were processed

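UMI counts per gene and cell were read from the matrices the authors deposited for 5 single-cell libraries of PyMT mouse mammary tumours. The values are raw counts, made with Cell Ranger 3.0.1 on mm10 per the submitters' processing notes, which do not say which library each tool was used for. The pooled fresh 10x matrix and the BD subset matrices were not used here. Python 3.11.15 (numpy 2.4.6, pandas 2.3.3, scipy 1.17.1, igraph 0.11.9, leidenalg 0.10.2, matplotlib 3.10.9) and R 4.3.3 (edgeR 4.0.16, DESeq2 1.42.0) were used.

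Cells with at least 200 genes were scaled to 10000 counts and clustered with the ligands left out (2000 variable genes, 30 principal components, 15 neighbours, Leiden resolution 2.0). Clusters were named where their best marker score led the second by at least 1.25 times and at least 3 markers were found in 20% of cells. They stayed unnamed where mitochondrial genes led, or where another class had more markers among the 10 leading genes. Shallow clusters with no marker of their class among those 10 genes stayed unnamed too. Called doublets were left out in fresh 10x 1 (16) and BD 1 (38). In the other libraries the caller marked under 0.5% of cells, and its calls were not used. The naming thresholds, the handling of doublets and the second clustering of immune cells were chosen after the data were seen, and the members and lists with earlier results of these data known.

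Counts were summed per library and class and tested with edgeR's quasi-likelihood test (TMM, minimum count 10), with Benjamini-Hochberg adjustment over all genes and a threshold of 0.05. Every adjusted p in the text is from it unless DESeq2 is named. Library depth was 29166129 to 59957945 UMIs. Ligands with at least 300 UMIs, or called in any test, are given with their values, as are receptors that were called or highest in a class. In simulated counts, 84.0% of 200 genes changed 4-fold were recovered for BD 1 in whole libraries (15096 genes) and 40.0% in macrophage-like cells (7886 genes). For stored 10x these were 87.0% (15003 genes) and 27.5% (7640 genes). Intervals cover counting error only. Gene positions are from GENCODE vM21 (GRCm38) and promoters from RefSeq on GRCm38.p6. The alternatives were DESeq2, no filter, a filter on cells (500 UMIs, 20% mitochondrial), BD 2 joined to BD 1, other clusterings, single clusters (added after the data were seen) and each fresh library left out. The values of 1 receptor are not reported here, although it is counted in its list.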

Additional observations from a re-analysis of the deposited data

Results flagged for a closer look

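Ccl17 moved in opposite directions in BD 1 against fresh 10x, with a log2 fold change of 3.53 in macrophage-like cells and -2.16 in fibroblast-like cells, and BD 1 lay on the same side of both fresh libraries in each class. The difference between the classes was not itself tested. In macrophage-like cells 186 of the 223 UMIs in BD 1 lay in 1 cell. In fibroblast-like cells the Ccl17 counts were 17 and 7 UMIs in fresh 10x and 8 in BD 1.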

How the results depend on the processing

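DESeq2 called 4 ligands in epithelial-like cells, 2 in macrophage-like cells and 8 in fibroblast-like cells of BD 1, where edgeR called 7, 6 and 15. In stored 10x DESeq2 called 2 in whole libraries and 3 in fibroblast-like cells, where edgeR called 0 and 8. Over all genes, edgeR called 891 in macrophage-like cells of BD 1 against 217 by DESeq2, 2458 with BD 2 joined to BD 1 and 2073 in the C1qc cluster alone. In fibroblast-like cells it called 5049 against 1749 by DESeq2, and in whole stored 10x 35 against 412 by DESeq2 and 2 without the filter on low counts. In epithelial-like cells of stored 10x the count of called ligands was 1, and it was 4 without that filter, 2 with the filter on cells and 3 at Leiden resolution 1.0. In macrophage-like cells of stored 10x it was 0, and 3 without the filter, 2 at resolution 1.0 and 4 in the C1qc cluster alone. In fibroblast-like cells of BD 1 it was 6 of 13 tested in the Efemp1 cluster alone and 8 of 17 in the Col8a1 cluster alone, and in stored 10x it was 3 in the Efemp1 cluster alone. The cause was not tested, although the single clusters hold fewer cells and fewer genes tested. The number of all genes called also moved with the setting in the scopes given above. These counts are therefore not a result about the ligands alone. Within clusters, 4 values reversed in fibroblast-like cells: Cxcl12 was -0.48 in BD 1 and -0.40 in stored 10x in the Efemp1 cluster, Cxcl10 was 0.05 in stored 10x there, and Ccl2 was 0.01 in stored 10x in the Col8a1 cluster. Of the alternatives for the 55 called ligand values, 43 lost the call, 4 reversed and the others kept direction and call. Leaving out either fresh library reversed none of them, but 46 values moved by at least their SE, while 64 stayed within it. Macrophage-like Cxcl9 in BD 1, for example, went from -4.31 to -0.06 without fresh 10x 2. The number of ligands with 1 leading class in all libraries was 20 or 21 under the alternatives, except 11 when only classes of at least 50 cells were ranked. No paired analysis was possible because only the fresh 10x group has 2 libraries, so the compared groups do not share 2 replicate numbers.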

Other observations

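Pf4, a platelet chemokine under another symbol, had 13.7, 36.9, 69.3, 66.9 and 61.8 CPM in the macrophage-like cells of fresh 10x 1, fresh 10x 2, stored 10x, BD 1 and BD 2, and was not called in BD 1 or stored 10x. A sub-cluster of 33 immune cells led by S100a9 had 14304 CPM of Cxcl2, 1815 CPM of Ccl6 and 2948 CPM of Cxcr2, the receptor of Cxcl2. Cxcl3 held 23 UMIs in that sub-cluster, at 296 CPM. The sub-cluster led by Serpinb1a and Cd163l1 had 1129.6 CPM of Cxcr6, and Ccrl2, a decoy receptor, had 481, 199, 858, 895 and 983 CPM in macrophage-like cells of the same libraries.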
